A study of Mus musculus with 12 samples.

Results

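Mmp2, Mmp3, Mmp10, Mmp13, Mmp14, Timp1, Timp2 and Timp3 encode 5 matrix metalloproteinases (MMPs) and 3 tissue inhibitors of metalloproteinases (TIMPs). They were taken by name, as a list of 8 of the 32721 genes in the deposited expression table, and all 8 passed the filter on low values that left 14279 genes for testing. Messenger RNA was sequenced from 12 libraries of mouse embryonic fibroblasts of the line Vps15f/f, in which the Vps15 gene (Pik3r4 in the table) is flanked by loxP sites, 3 libraries in each of 4 groups. The groups were Vps15KO cells after 2 h in EBSS, Vps15KO cells in basal medium, WT cells after 2 h in EBSS, and WT cells in basal medium. All 4 groups carried the floxed alleles, were used 5 days after transduction, and had reached 90% confluence in DMEM with 4.5 g/L glucose and 10% FBS. Vps15KO cells had received adeno-CRE, the recombinase that removes floxed DNA, and WT cells had received adeno-GFP, per the labels, although the library names read pLEX. Exposure to Cre and loss of Vps15 therefore cannot be told apart in this design. EBSS is a buffered salt solution that lacks amino acids and serum and holds less glucose than the growth medium, so these removals cannot be told apart either. The labels do not say whether replicates came from separate cultures, so the p-values measure the spread between these libraries, which may be technical.

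Vps15 is the regulatory subunit of the class III phosphatidylinositol 3-kinase complex, which acts in autophagy and endosomal sorting. MMPs are zinc-dependent endopeptidases that cut collagens, proteoglycans and other extracellular proteins, and they are made as inactive precursors. TIMPs bind the active site of MMPs, and the balance between enzymes and inhibitors sets how fast fibroblasts turn over the matrix around them. At the cell surface Mmp14 and Timp2 together form the site at which the precursor of Mmp2 is cut. All of this takes place on proteins, whereas the values given here are of transcripts.

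Of the metalloproteinase genes, Mmp13 (chr9:7272514-7283333, GRCm38, the same assembly as mm10), Mmp3 (chr9:7445822-7455975) and Mmp10 (chr9:7502342-7510242), lie on the plus strand of chromosome 9 in a row of 9 MMP genes. That row counts only genes in the deposited expression table, which has no entry for Mmp20. The other 6 genes of that row, Mmp12, Mmp1b, Mmp1a, Mmp8, Mmp27 and Mmp7, had at most 12 reads in a library and were not tested. Mmp2 (chr8:92827290-92853421, plus strand), Mmp14 (chr14:54431598-54442456, plus strand), Timp1 (chrX:20870166-20874737, plus strand), Timp2 (chr11:118301061-118355411, minus strand) and Timp3 (chr10:86300412-86349505, plus strand) lie elsewhere. RefSeq promoter windows of GRCm38.p6, from 250 bases before to 50 bases after the annotated start, were available for 7 of the 8 genes and not for Mmp2. They are shown because the motifs marked first below were found, among these windows, only in those of the genes on chromosome 9. In the last 120 bases before the start, capitals mark TGAGTCA or its reverse complement TGACTCA, the letters that AP-1 (Fos and Jun family dimers) is known to bind, and TATAAA, the TATA box letters. The stretches are chr9:7272394-7272513, chr9:7445702-7445821 and chr9:7502222-7502341, all on the plus strand.
Mmp13: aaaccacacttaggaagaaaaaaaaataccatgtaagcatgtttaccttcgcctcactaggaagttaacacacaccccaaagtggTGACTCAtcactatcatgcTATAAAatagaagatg
Mmp3: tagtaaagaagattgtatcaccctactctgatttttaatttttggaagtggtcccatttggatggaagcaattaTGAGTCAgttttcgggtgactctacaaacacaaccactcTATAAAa
Mmp10: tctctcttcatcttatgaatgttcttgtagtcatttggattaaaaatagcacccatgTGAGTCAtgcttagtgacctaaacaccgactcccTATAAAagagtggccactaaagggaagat
The AP-1 letters stood at -35 to -29 in Mmp13 (on the opposite strand), at -46 to -40 in Mmp3 and at -63 to -57 in Mmp10, and each gene had 1 TATAAA after them, starting at -16, -7 and -29.

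In the promoters of Mmp14 (chr14:54431478-54431597, plus strand), Timp2 (chr11:118355412-118355531, minus strand) and Timp3 (chr10:86300292-86300411, plus strand), capitals mark GGGCGG or its reverse complement CCGCCC, the GC box known to be bound by Sp1 family factors.
Mmp14: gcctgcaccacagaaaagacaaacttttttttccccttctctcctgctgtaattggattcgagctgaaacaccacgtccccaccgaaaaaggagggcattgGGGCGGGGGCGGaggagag
Timp2: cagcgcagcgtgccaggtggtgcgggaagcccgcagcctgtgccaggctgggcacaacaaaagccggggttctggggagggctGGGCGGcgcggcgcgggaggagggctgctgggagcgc
Timp3: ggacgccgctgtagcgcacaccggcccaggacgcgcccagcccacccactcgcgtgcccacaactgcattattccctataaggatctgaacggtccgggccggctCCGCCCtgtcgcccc
Both strands of each window were searched for each motif. The AP-1 letters were found in 3 of the 7 windows, those of Mmp13, Mmp3 and Mmp10, against 4.12% of the 13931 windows of tested genes and 5.2% of all 32851 windows. The TATA letters were found in the same 3 windows, against 7.53% and 13.6%, and both motifs together in 0.452% and 0.941%. The GC box letters were found in the other 4 windows, Mmp14 (2 matches), Timp1 (1), Timp2 (1) and Timp3 (2), against 60.2% of windows of tested genes and 35.7% of all windows. Holding them is thus common among tested genes and not particular to these. Of the windows of 14 other MMP genes, 4 held the AP-1 letters and 7 the TATA letters. AACCACA, letters bound by RUNX factors, was found in Mmp13 alone among the 7, at -119 to -113, and in 3.74% of windows of tested genes. AGGAAG, an ETS-family (PEA3) motif, was found in Mmp3, Mmp13, Mmp14, Timp1 and Timp3, and in 32.7% of windows of tested genes. These matches are descriptions of letters, and binding was not measured in this study.

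**Figure D1:**
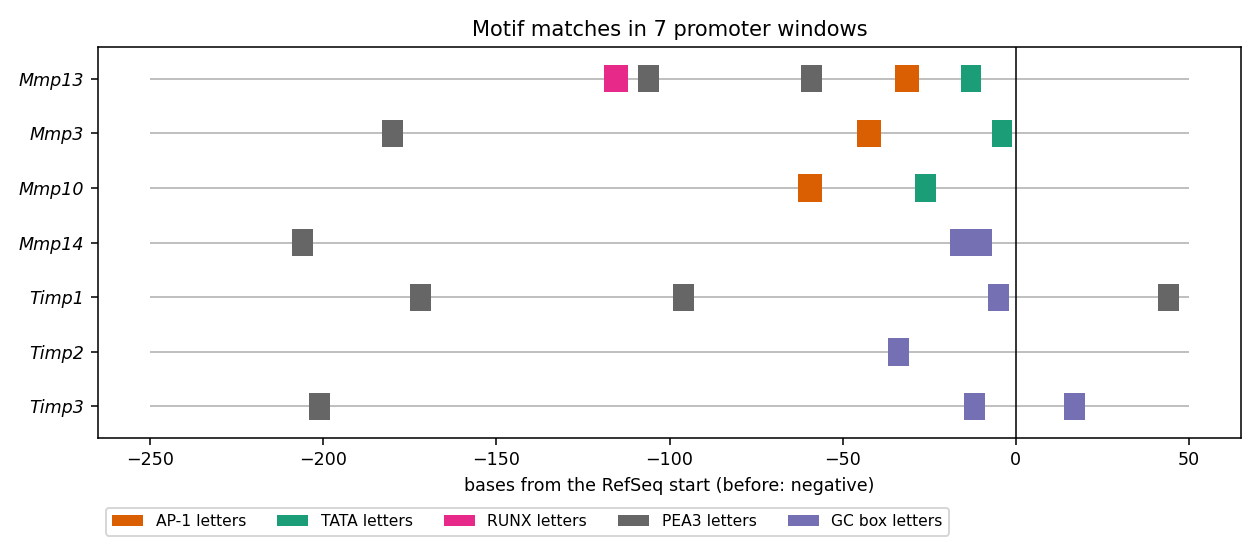
Positions of motif matches in the promoter windows of 7 genes (rows), against the distance in bases from the RefSeq start site (horizontal axis). Coloured blocks mark matches on either strand: the AP-1 and TATA letters are in Mmp13, Mmp3 and Mmp10, and the GC box letters are in Mmp14, Timp1, Timp2 and Timp3.

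The libraries held 21278921 to 21698584 reads in genes. The fibroblast marker genes were abundant, with Thy1 alone at no more than 3 reads. Pik3r4, the targeted gene, averaged 632 ± 35.9 normalized counts in Vps15KO cells in EBSS, 658 ± 36.7 in Vps15KO cells in basal medium, 895 ± 62.7 in WT cells in EBSS and 875 ± 10.3 in WT cells in basal medium (SD, n = 3 each). It was lower in Vps15KO cells in both media, with 70.7% of the WT mean in EBSS (adjusted p = 1.03e-05) and 75.1% in basal medium (adjusted p = 8.41e-05), so most of its signal was still present. The labels do not say which exons were floxed, and reads outside them would still be counted. Of all libraries, WT basal replicate 2 and WT EBSS replicate 1 stood furthest from their own groups. The chi-square per gene against the other replicates was 22.1 and 21.0 for WT basal replicate 2 and 8.45 and 12.2 for WT EBSS replicate 1, compared with 3.24 and 3.92 between the remaining pairs of those groups. Values that change without them are given beside the results.

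In normalized counts per kilobase of the longest annotated transcript, the scale on which genes can be set side by side, Timp2 was the most abundant of the 8 transcripts in all 4 groups, and Mmp13 and Mmp10 were the scarcest. Timp2 averaged 13229 ± 439 per kilobase in Vps15KO cells in EBSS, 12430 ± 890 in Vps15KO cells in basal medium, 22653 ± 1607 in WT cells in EBSS and 18499 ± 1044 in WT cells in basal medium. Among 13527 tested genes with a known length this placed it at ranks 68, 99, 31 and 61 from the top. In Vps15KO cells in either medium the order after Timp2 was Timp1, Mmp2, Mmp14, Mmp3, Timp3, Mmp13 and Mmp10. In WT cells in either medium it was Mmp14, Mmp2, Timp1, Timp3, Mmp3, Mmp13 and Mmp10. Neighbours whose libraries overlapped were Timp1 and Mmp2 in Vps15KO EBSS, Mmp2 and Mmp14 in Vps15KO basal, and Mmp14 and Mmp2 in WT basal cells. The places of Mmp14 and Timp3 depend on the length used. With all annotated exons counted, Mmp14 stood below Mmp2 in each group and below Mmp3 in Vps15KO EBSS cells, and Timp3 stood below Mmp3 in each group, WT cells included. Mmp14 then also stood below Timp1 in WT cells in either medium. Neighbours that overlapped with this length were Mmp3 and Mmp14 in Vps15KO EBSS cells, and Mmp2 and Timp1 in WT basal cells. In WT EBSS cells Timp1 overlapped with Mmp14, and Mmp3 with Timp3. Mmp10 averaged 41.2 ± 10.3 per kilobase in Vps15KO EBSS cells, 35.4 ± 7.9 in Vps15KO basal cells, 34.2 ± 1.4 in WT EBSS cells and 32.8 ± 6.0 in WT basal cells, and its 4 groups overlapped. Mmp13 averaged 280 ± 3.9 per kilobase in Vps15KO EBSS cells, 287 ± 30.6 in Vps15KO basal cells, 78.1 ± 9.8 in WT EBSS cells and 101 ± 14.2 in WT basal cells.

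**Figure D2:**
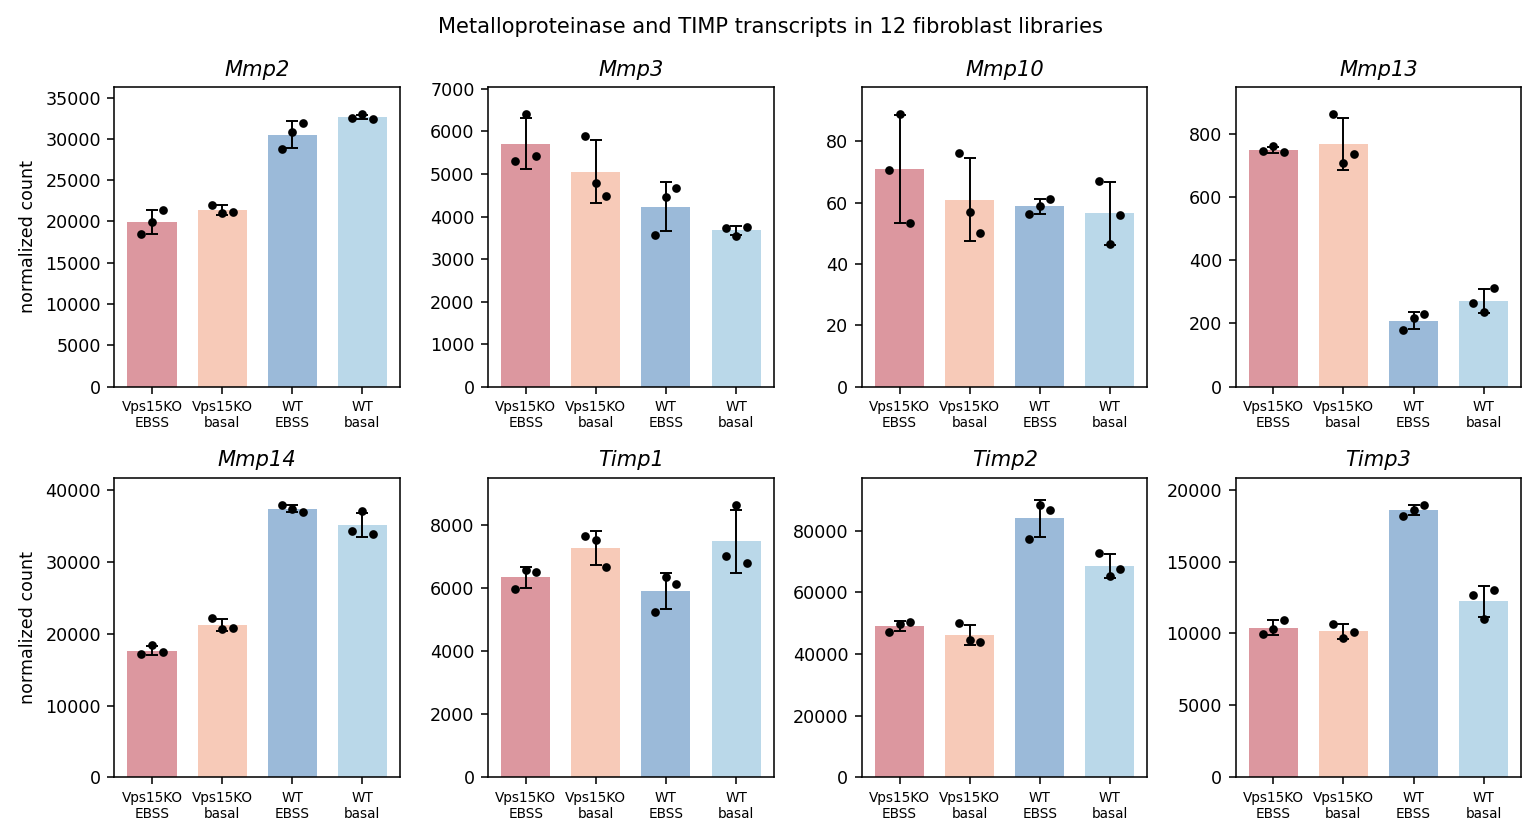
Normalized counts (vertical axes, each from 0) of the 8 genes in Vps15KO and WT fibroblasts in EBSS or basal medium. Bars are means of 3 libraries, error bars are SD and points are libraries; the Mmp13 points of Vps15KO cells lie between 707 and 861, above all WT points, and the Mmp14 points of Vps15KO cells lie below all WT points.

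In basal medium the comparison of Vps15KO with WT cells asks what differs in fed cells given Cre. The collagenase Mmp13 and the stromelysin Mmp3 were higher in Vps15KO cells, and the membrane-bound collagenase Mmp14, the gelatinase Mmp2 and the inhibitors Timp2 and Timp3 were lower. Mmp10 and Timp1 did not pass the test. Thus 6 of 8 genes (75.0%) were called at an adjusted p under 0.05, where 58.5% of the 14279 tested genes were. For a list of 8 this is a share near that of all genes. The groups did not overlap for 6 of 8 genes (75.0%), against 61.7% of tested genes. Of the 6 called, 2 were higher (29.3% of tested genes) and 4 lower (29.2%). The list median was -0.15 in log2, against -0.01 over all tested genes.

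Mmp13, collagenase 3, the main secreted collagenase of mouse fibroblasts, had 861, 707 and 737 normalized counts in Vps15KO basal libraries, against 264, 237 and 312 in WT basal libraries. The groups were widely separate, at 2.84-fold in the means. The log2 difference was 1.42 ± 0.10 (SE), adjusted p = 1.36e-09, the 140th highest of all tested genes. Mmp3, stromelysin 1, which cuts proteoglycans and activates other MMP precursors, had 5890, 4785 and 4475 normalized counts in Vps15KO basal libraries, against 3739, 3547 and 3743 in WT basal libraries. Its groups did not overlap, with Vps15KO replicate 1 well above the rest, and the difference was 0.45 ± 0.10 (adjusted p = 0.00104). Mmp10, stromelysin 2, a close relative of Mmp3 with a similar range of substrates, had 76.2, 56.8 and 50 normalized counts in Vps15KO basal libraries and 67.1, 46.6 and 56.0 in WT basal libraries, and these overlapped. Its difference was 0.07 ± 0.14 (adjusted p = 0.679).

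Mmp14, the membrane-type MMP that cuts fibrillar collagen at the cell surface, had 22171, 20689 and 20866 normalized counts in Vps15KO basal libraries, against 34361, 37084 and 33955 in WT basal libraries. All Vps15KO libraries lay far below all WT libraries, at 60.5% of the WT mean. The difference was -0.72 ± 0.06 (adjusted p = 1.89e-08). Mmp2, gelatinase A, whose substrates include denatured and basement membrane collagen, had 22058, 21037 and 21120 normalized counts in Vps15KO basal libraries, against 32550, 32959 and 32435 in WT basal libraries. The 2 groups were each narrow and separate, at 65.6% of the WT mean, with a difference of -0.61 ± 0.07 (adjusted p = 4.09e-07). The gene pair that acts together at the protein level was thus lower together in transcripts.

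Timp2, which inhibits MMPs and also links Mmp14 to the Mmp2 precursor, had 49882, 44621 and 43803 normalized counts in Vps15KO basal libraries, against 72860, 65278 and 67704 in WT basal libraries. Every Vps15KO library was below every WT library, at 67.2% of the WT mean and a difference of -0.57 ± 0.08 (adjusted p = 5.91e-06). Timp3, the inhibitor that stays bound to the matrix and also acts on ADAM and ADAMTS proteases, had 10680, 9672 and 10107 normalized counts in Vps15KO basal libraries, against 12695, 11022 and 13017 in WT basal libraries. These groups were close but did not overlap, at 82.9% of the WT mean. The difference of -0.27 ± 0.07 (adjusted p = 0.00268) was the weakest of the 6 in size, and with quantile normalization it was -0.14 and no longer called (adjusted p = 0.105). Timp1, a secreted inhibitor of most MMPs that is weak against Mmp14, had 7660, 7527 and 6665 normalized counts in Vps15KO basal libraries and 7015, 8639 and 6811 in WT basal libraries. These overlapped, and the difference was -0.03 ± 0.09 (adjusted p = 0.76).

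After 2 h in EBSS the same comparison between genotypes gave the same 6 calls with the same signs. Of the 8 genes 6 (75.0%) were called, against 57.2% of tested genes, with 2 higher (29.4%) and 4 lower (27.8%), and groups did not overlap for 6 of 8 genes (75.0%), against 66.3% of tested genes. The list median was -0.25, against 0.00 over all tested genes. The differences of Mmp14 and Timp3 were larger than in basal medium, and that change is tested further on.

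Mmp13 had 744, 761 and 743 normalized counts in Vps15KO EBSS libraries, against 179, 218 and 229 in WT EBSS libraries, which is 3.59-fold in the means. The difference was 1.72 ± 0.10 (adjusted p = 9.32e-11), the 74th highest of all tested genes. Mmp3 had 5308, 6399 and 5419 normalized counts in Vps15KO EBSS libraries, against 3572, 4462 and 4670 in WT EBSS libraries, without overlap, and differed by 0.43 ± 0.10 (adjusted p = 0.00135). Mmp14 had 17147, 18417 and 17400 normalized counts in Vps15KO EBSS libraries, against 37949, 37373 and 36983 in WT EBSS libraries. This is 47.2% of the WT mean, with both groups narrow. Its difference of -1.08 ± 0.06 (adjusted p = 8.71e-11) was the 239th lowest of all tested genes. Mmp2 had 18498, 19920 and 21416 normalized counts in Vps15KO EBSS libraries, against 28768, 30854 and 31924 in WT EBSS libraries, and differed by -0.61 ± 0.07 (adjusted p = 3.29e-07); with quantile normalization the difference was -0.36.

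Timp3 had 9938, 10315 and 10960 normalized counts in Vps15KO EBSS libraries, against 18199, 18587 and 18930 in WT EBSS libraries. The gap was wide beside the spread within either group, at 56.0% of the WT mean, and the difference was -0.84 ± 0.07 (adjusted p = 8.52e-09). Timp2 had 47226, 49657 and 50321 normalized counts in Vps15KO EBSS libraries, against 77214, 88295 and 86554 in WT EBSS libraries, a difference of -0.77 ± 0.08 (adjusted p = 1.41e-07). Both inhibitors were therefore lower in each Vps15KO library than in any WT library. Timp1 had 5970, 6568 and 6510 normalized counts in Vps15KO EBSS libraries and 5257, 6352 and 6135 in WT EBSS libraries, with overlap and a difference of 0.11 ± 0.09 (adjusted p = 0.326). Of the alternatives, 1 called it higher, the removal of trends with length and GC content (0.18, adjusted p = 0.0345). Mmp10 had 70.8, 88.8 and 53.3 normalized counts in Vps15KO EBSS libraries and 56.4, 59.0 and 61.2 in WT EBSS libraries, also with overlap (0.18 ± 0.14, adjusted p = 0.298). Without both WT libraries that stood apart, 6 of 8 genes were called in either medium.

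Other markers differed between the genotypes beside these genes. Of all tested genes 27.8% were called lower in Vps15KO cells in EBSS and 29.2% in basal medium. Fibroblast markers, 9 of 10 tested, were called lower for 8 of 9 in each medium. Their summed normalized counts were 163621 to 175151 in Vps15KO EBSS, 176480 to 185252 in Vps15KO basal, 313688 to 339485 in WT EBSS and 347418 to 367866 in WT basal libraries. The summed macrophage and leukocyte markers were 2639 to 3313 in Vps15KO EBSS, 2925 to 3803 in Vps15KO basal, 804 to 899 in WT EBSS and 872 to 903 in WT basal libraries. Only 2 of those 8 markers were tested, and Ptprc, Adgre1, Itgam, Lyz2 and Tyrobp were at no more than 3 reads in every library. Summed endothelial markers were 114 to 133 and 112 to 124 in Vps15KO EBSS and Vps15KO basal libraries, and 25.5 to 37.2 and 33.9 to 46.1 in WT EBSS and WT basal libraries, with 1 of 6 tested and Tie1 at no more than 3 reads. Epithelial markers summed to at most 35.7, muscle markers to at most 60.8 and adipocyte markers to at most 791 in any library. The part of these differences in those of the MMPs and TIMPs was not tested, and in bulk samples fewer cells of a type and less RNA per cell cannot be told apart.

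**Figure D3:**
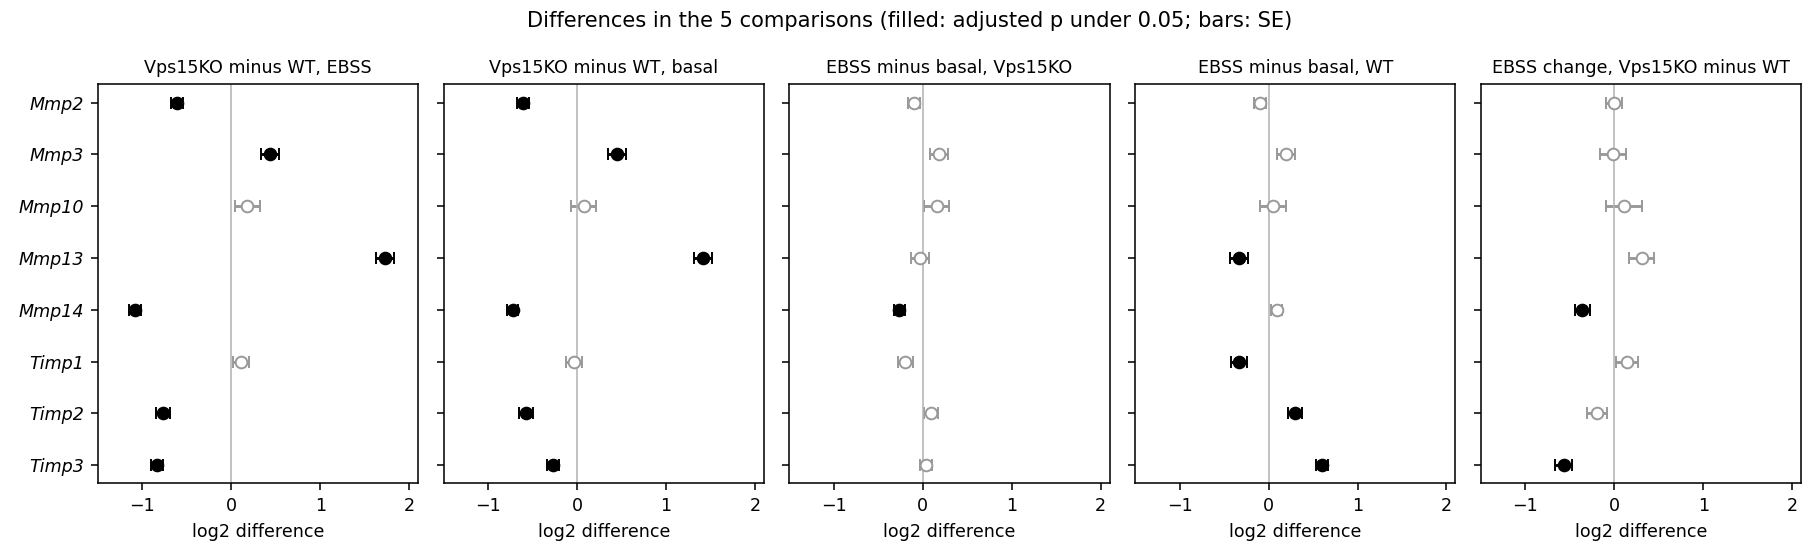
Log2 differences (horizontal axes) of the 8 genes in 5 comparisons, from left to right Vps15KO minus WT in EBSS and in basal medium, EBSS minus basal in Vps15KO and in WT cells, and the difference of the EBSS change between genotypes. Points are estimates from 3 libraries a group, bars are SE and filled points have an adjusted p under 0.05; the genotype panels show 6 filled points each, and the EBSS panels show 1 in Vps15KO and 4 in WT cells.

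Within Vps15KO cells, 2 h in EBSS changed 1 of the 8 genes past the threshold, Mmp14, which was lower. This is 12.5% of the list, against 52.0% of tested genes, 26.1% of which were called lower. Mmp14 was at 17655 ± 672 normalized counts in EBSS and 21242 ± 810 in basal medium, without overlap, at 83.1% of the basal mean (-0.27 ± 0.06, adjusted p = 0.00171). With quantile normalization its difference was -0.18 (adjusted p = 0.0171). Timp1, at 6349 ± 330 in EBSS and 7284 ± 541 in basal medium, also had separate groups, but its difference of -0.20 ± 0.09 missed the threshold (adjusted p = 0.072). Groups without overlap were found for 2 of 8 genes (25.0%) and for 63.0% of tested genes. The other 6 differences ran from -0.10 for Mmp2 to 0.18 for Mmp3, with Timp3 at 0.04 and Mmp13 at -0.03. The count depended on the fit. Mmp3 and Timp1 were also called when only the Vps15KO groups were fitted (adjusted p = 0.0481 and 0.00395) and when both WT libraries that stood apart were left out (0.0301 and 0.00192), which made 3 of 8. Timp1 was called without Vps15KO basal replicate 3 (0.0404) or WT basal replicate 2 (0.0113), Mmp3 without Vps15KO basal replicate 1 (0.0225), and Timp1 and Timp2 with quantile normalization (0.0187 and 0.045). With trends of length and GC content removed, the difference of Timp1 was -0.02 (adjusted p = 0.819).

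Within WT cells, 2 h in EBSS went with higher Timp3 and Timp2 and lower Timp1 and Mmp13. These are 4 of 8 genes (50%), against 62.7% of tested genes, 2 higher (31.4% of tested genes) and 2 lower (31.3%). All 3 TIMPs were called, and of the 5 MMPs 1 was. Groups did not overlap for 5 of 8 genes (62.5%), against 65.2% of tested genes.

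Timp3 averaged 18572 ± 366 normalized counts in WT EBSS libraries and 12244 ± 1071 in WT basal libraries, or 152% of the basal mean. The rise was 0.60 ± 0.07 (adjusted p = 5.12e-07), present in every EBSS library against every basal one. With trends of length and GC content removed it was 0.40. Timp2 averaged 84021 ± 5959 in EBSS and 68614 ± 3872 in basal medium, 0.29 ± 0.08 higher (adjusted p = 0.00362). Timp1 averaged 5915 ± 579 in EBSS and 7488 ± 1002 in basal medium, a log2 difference of -0.34 ± 0.09 (adjusted p = 0.00302). Its highest basal library was replicate 2, which stood apart. Without both WT libraries that stood apart the difference of Timp1 was -0.15 (adjusted p = 0.05, not called), and with length and GC trends removed it was -0.12 (adjusted p = 0.143).

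Mmp13 averaged 209 ± 26.3 normalized counts in WT EBSS libraries and 271 ± 37.9 in WT basal libraries, a difference of -0.34 ± 0.10 (adjusted p = 0.00729). The groups did not overlap, but the call was lost without WT EBSS replicate 1 (adjusted p = 0.0524) or without WT basal replicate 3 (0.0512). Mmp2 was at 30516 ± 1605 in EBSS and 32648 ± 276 in basal medium, separate but not called (-0.10 ± 0.07, adjusted p = 0.207). Mmp3 was at 4235 ± 583 in EBSS and 3676 ± 112 in basal medium (0.19 ± 0.10, adjusted p = 0.106). Mmp3 was called without WT EBSS replicate 1, its lowest EBSS library (adjusted p = 0.0121), or without both WT libraries that stood apart (0.00638). Mmp14 was at 37435 ± 486 in EBSS and 35133 ± 1702 in basal medium (0.09 ± 0.06, adjusted p = 0.208), and was called with quantile normalization (0.00141) and with length and GC trends removed (0.0143).

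The EBSS change itself was then compared between genotypes, as the change in Vps15KO cells minus the change in WT cells. It differed for 2 of 8 genes (25.0%), Timp3 and Mmp14, both lower, against 17.8% of tested genes, with 9.55% of tested genes called higher and 8.24% lower. For Timp3 the difference was -0.57 ± 0.10 (adjusted p = 5.58e-04), from changes of 0.04 in Vps15KO cells and 0.60 in WT cells. For Mmp14 it was -0.36 ± 0.09 (adjusted p = 0.00906), from changes of -0.27 in Vps15KO cells and 0.09 in WT cells. Both calls held in each of the 22 alternatives tried. Mmp13 (0.31 ± 0.14, adjusted p = 0.15) and Timp2 (-0.20 ± 0.11, adjusted p = 0.236) did not pass, although Mmp13 did without WT basal replicate 2 (0.031) and with length and GC trends removed (0.0411). The remaining differences were between -0.01 for Mmp3 and 0.14 for Timp1. Both comparisons of media share no library with each other, and each shares libraries with the comparisons of genotypes.

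Ratios within a library put the inhibitors beside the enzymes. The summed 5 MMPs over the summed 3 TIMPs, per kilobase, were 0.682 ± 0.0137 in Vps15KO EBSS, 0.729 ± 0.0172 in Vps15KO basal, 0.721 ± 0.0326 in WT EBSS and 0.799 ± 0.0232 in WT basal libraries. With all annotated exons as the length, this ratio was 0.588 ± 0.012 in Vps15KO EBSS, 0.613 ± 0.0143 in Vps15KO basal, 0.584 ± 0.0229 in WT EBSS and 0.645 ± 0.0167 in WT basal libraries. In EBSS the libraries of the genotypes overlapped with either length, so they have no clear order there. The 5 MMPs took 0.207% of reads in Vps15KO EBSS, 0.230% in Vps15KO basal, 0.329% in WT EBSS and 0.330% in WT basal libraries, and the 3 TIMPs took 0.309%, 0.301%, 0.493% and 0.406% in those groups. In total the 8 genes took 0.517% ± 0.0197 of reads in Vps15KO EBSS, 0.531% ± 0.0299 in Vps15KO basal, 0.822% ± 0.0329 in WT EBSS and 0.736% ± 0.0288 in WT basal libraries. Mmp14 over Mmp2 was 0.844 ± 0.0622 in Vps15KO EBSS, 0.943 ± 0.0109 in Vps15KO basal, 1.17 ± 0.0778 in WT EBSS and 1.02 ± 0.0408 in WT basal libraries, so the Vps15KO libraries were below all WT libraries. With all exons this ratio was 0.502 in Vps15KO EBSS, 0.561 in Vps15KO basal, 0.695 in WT EBSS and 0.609 in WT basal libraries, below 1 in each group, and the genotypes again did not overlap. Mmp14 over Timp2 was 0.412 ± 0.0147 in Vps15KO EBSS, 0.529 ± 0.0184 in Vps15KO basal, 0.512 ± 0.0438 in WT EBSS and 0.588 ± 0.0566 in WT basal libraries. The collagenase Mmp13 over Timp1 was 0.0391 ± 0.00187 in Vps15KO EBSS, 0.0349 ± 0.00338 in Vps15KO basal, 0.0116 ± 0.000613 in WT EBSS and 0.0122 ± 0.00304 in WT basal libraries, and this ratio separated the genotypes without overlap. Ratios were not tested.

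**Figure D4:**
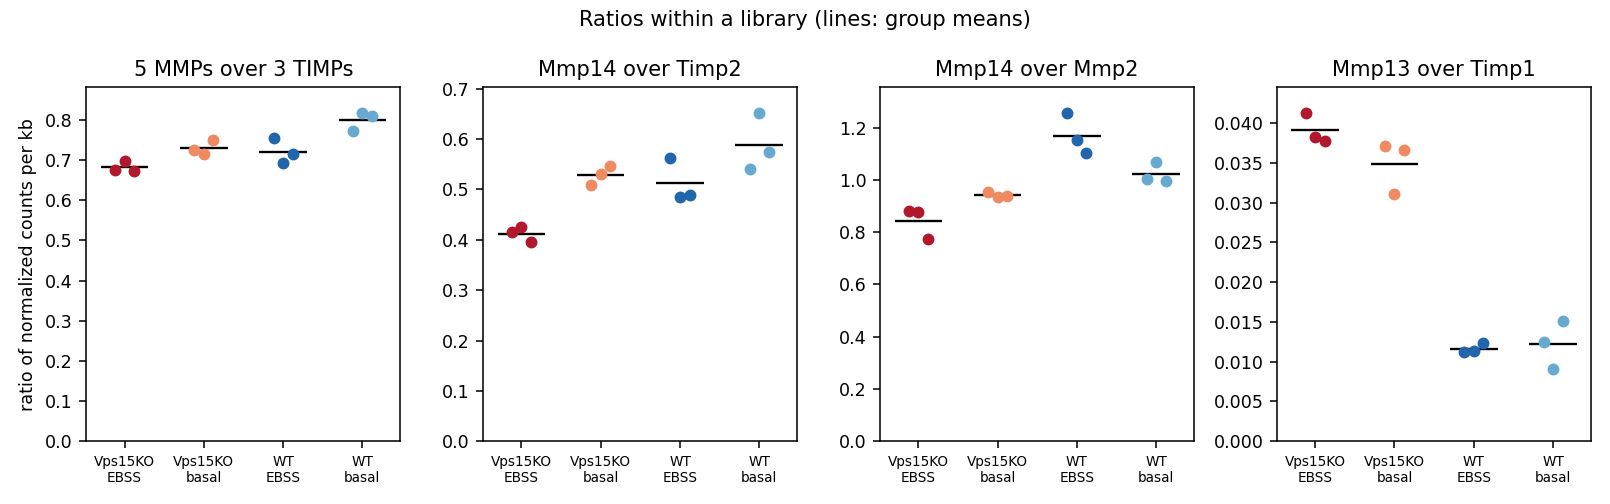
Ratios of normalized counts per kilobase within each library (vertical axes, from 0) for Vps15KO and WT cells in EBSS or basal medium, with points for libraries and lines for means of 3. The 5 MMPs over 3 TIMPs lie between 0.673 and 0.816 in all libraries, whereas Mmp13 over Timp1 lies between 0.0310 and 0.0412 in Vps15KO and between 0.00907 and 0.0151 in WT libraries.

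Across the 12 libraries the 8 genes did not follow each other alike. As a description over libraries that share 4 groups, Pearson's r was 0.96 between Mmp14 and Mmp2, 0.91 between Mmp14 and Timp2, 0.92 between Timp2 and Timp3, and -0.96 between Mmp13 and Mmp14. Timp1 had an r between -0.53 (with Timp3) and 0.20 (with Mmp13) to the other 7. Mmp3 and Mmp10, neighbours on chromosome 9, had an r of 0.67, and Mmp3 and Mmp13 0.80. The most similar genes were sought among tested protein-coding and long noncoding RNA genes other than the 8. Genes named as predicted, Riken clones or pseudogenes were left out. Those most like Mmp2 over the 12 libraries were Cd81 (r = 0.994), Col3a1 (0.991) and Penk (0.991). For Mmp14 they were H3f3a, Tpst1 and Marveld1 (0.994 to 0.993), for Timp2 Ppt1, Amigo2 and Cdh13 (0.996 to 0.988), and for Timp3 Pdcl, Zfp113 and Akt1 (0.985 to 0.984). For Mmp13 they were Apobec1, Steap2 and Tbc1d31 (0.992 to 0.988), and for Mmp3 Dennd10, Cp and Mknk1 (0.952 to 0.920). The closest to Timp1 were Gtf2a2, Lrwd1 and Gpr108 (0.950 to 0.935), and those to Mmp10 were Rab27b, Tyw5 and Abcd2 (0.872 to 0.810).

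Of 18 other MMP genes, 17 are in the table and 8 were tested; expression of Mmp20 was not analysed here. In Vps15KO against WT cells 3 were called higher and 3 lower in EBSS, where 29.4% and 27.8% of all tested genes were. In basal medium 3 were called higher and 2 lower, against 29.3% and 29.2% of tested genes. Mmp17, a membrane-type MMP held by a lipid anchor, was higher in Vps15KO cells by 0.61 ± 0.12 in EBSS (adjusted p = 3.74e-04) and by 0.78 ± 0.12 in basal medium (2.83e-05). Mmp16, another membrane-type MMP, was lower in both (-0.66 ± 0.08 and -0.50 ± 0.08), and Mmp28 was higher in both (0.35 ± 0.07 each). EBSS against basal medium gave 1 higher and 2 lower in Vps15KO cells, against 25.9% and 26.1% of all tested genes. In WT cells it gave 3 higher and 2 lower, against 31.4% and 31.3%. Mmp9 was called lower with EBSS in Vps15KO cells (-0.32 ± 0.12, adjusted p = 0.038) and higher in Vps15KO than WT cells in basal medium (0.34 ± 0.12, 0.0245). These calls were lost without single libraries, such as Vps15KO EBSS replicate 3 (0.200) and WT basal replicate 3 (0.100) respectively. Mmp11, stromelysin 3, fell by 0.84 ± 0.07 in Vps15KO cells (adjusted p = 1.37e-08) and by 0.35 ± 0.07 in WT cells (2.85e-04) as log2 differences. Mmp15, a membrane-type MMP, rose by 0.91 ± 0.15 in WT cells (adjusted p = 4.62e-05). Mmp23 was lower with EBSS in WT cells (-1.01 ± 0.12) and lower in Vps15KO than in WT cells in basal medium (-0.41 ± 0.12, not called without WT basal replicate 2, adjusted p = 0.0649). In EBSS it was called higher in Vps15KO cells (0.32 ± 0.12, adjusted p = 0.0359), a call lost without Vps15KO EBSS replicate 1 or 3 or WT EBSS replicate 2 or 3 (adjusted p = 0.0553 to 0.138).

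Of 12 genes for other inhibitors, activators and receptors of MMPs, 11 were tested. In Vps15KO against WT cells 1 was called higher and 6 lower in EBSS, where 29.4% and 27.8% of all tested genes were. In basal medium 3 were called higher and 6 lower, against 29.3% and 29.2% of tested genes. Pcsk6, called lower in both media, lost its calls without single libraries, such as Vps15KO EBSS replicate 2 (adjusted p = 0.106) and Vps15KO basal replicate 2 (0.141). Reck, a membrane-anchored MMP inhibitor, was lower in Vps15KO cells by a log2 difference of -0.90 ± 0.09 in EBSS (adjusted p = 1.19e-07) and -0.54 ± 0.09 in basal medium (5.85e-05). Caveolin gene Cav1 and the collagen receptor gene Ddr1 were also lower in both media (-0.49 and -0.48 in EBSS, -0.42 and -0.41 in basal medium). EBSS against basal medium gave 3 higher and 3 lower in Vps15KO cells, against 25.9% and 26.1% of all tested genes. In WT cells it gave 3 higher and 2 lower, against 31.4% and 31.3%. Most of the Vps15KO calls were lost in some alternatives. Without Vps15KO EBSS replicate 1, 2 or 3 in turn, Reck (adjusted p = 0.0801), Cd44 (0.0586) and Ddr2 (0.0555) were not called. Bsg was not called with quantile normalization (0.0899). Lrp1, an endocytic receptor that clears MMPs, differed between genotypes by -0.77 ± 0.11 in basal medium (adjusted p = 1.44e-05), and in WT cells was lower in EBSS (-0.70 ± 0.11, adjusted p = 3.83e-05). Mrc2, a receptor for collagen uptake, was lower in Vps15KO cells in basal medium (-0.43 ± 0.07). Cd44, a docking site for MMPs, and Ddr2, a collagen receptor, were higher with EBSS in WT cells (0.40 ± 0.08 and 0.53 ± 0.08). With length and GC trends removed, Cd44 was at 0.12 and no longer called (adjusted p = 0.0631), and Ddr2 was at 0.21 and still called. Timp4, a further TIMP, was higher in Vps15KO cells by 0.36 ± 0.13 in either medium, but both calls were lost without single libraries, such as Vps15KO EBSS replicate 3 (adjusted p = 0.156) and Vps15KO basal replicate 2 (0.0919).

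Furin, the convertase that cuts the precursor of Mmp14, had 5513, 5462 and 5309 normalized counts in Vps15KO EBSS libraries, 4564, 4474 and 4715 in Vps15KO basal libraries, 10690, 9494 and 9301 in WT EBSS libraries, and 4942, 4466 and 4885 in WT basal libraries. The WT EBSS libraries stood well above all others. Its EBSS change was 0.24 ± 0.06 in Vps15KO cells (adjusted p = 0.00345) and 1.04 ± 0.06 in WT cells (1.41e-10), and the difference between these was -0.80 ± 0.09 (8.37e-06). The smaller change in Vps15KO cells was no longer called with quantile normalization (adjusted p = 0.0593) or with length and GC trends removed (0.0843). Furin, Mmp14 and Timp3 were thus called lower in the difference of EBSS changes.

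**Figure D5:**
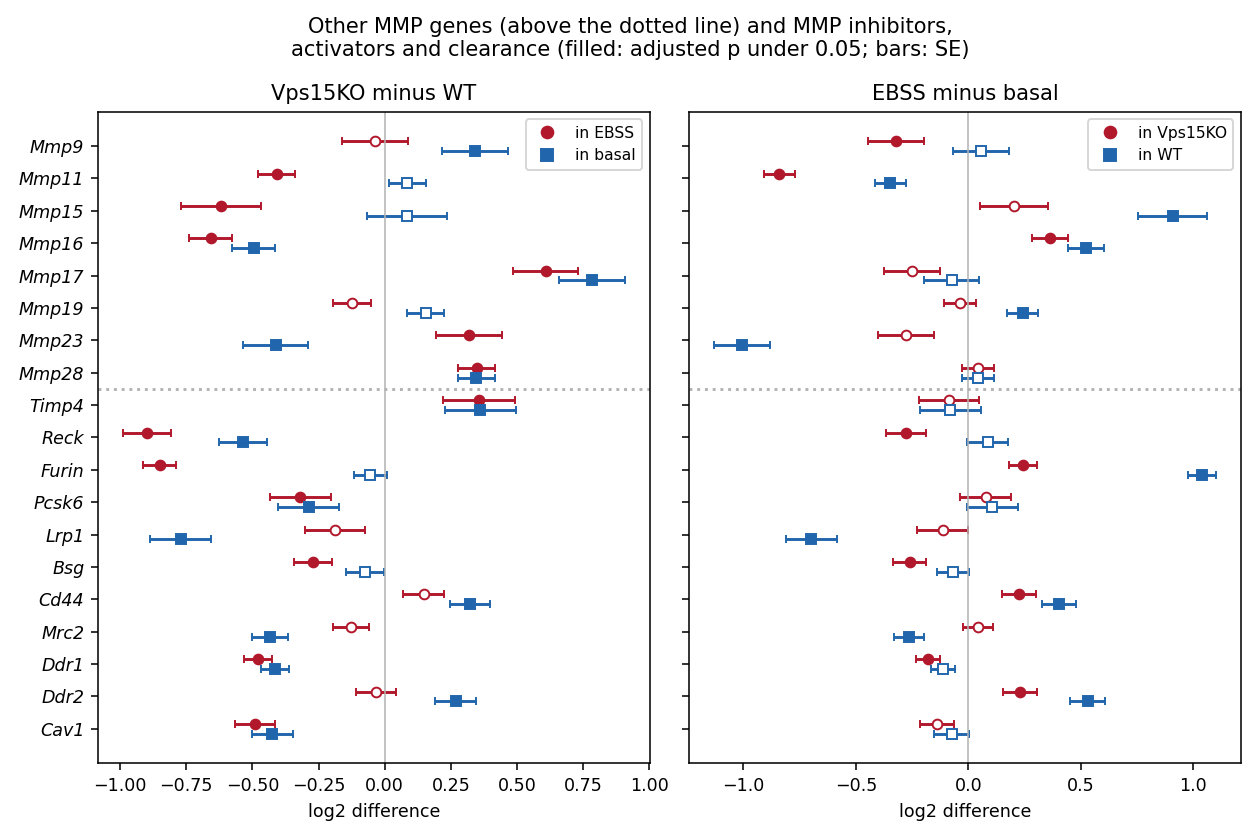
Log2 differences (horizontal axes) of 8 other MMP genes and 11 genes of MMP inhibition, activation and clearance (rows), Vps15KO minus WT on the left and EBSS minus basal on the right. Points are estimates from 3 libraries a group, bars are SE and filled points have an adjusted p under 0.05; Furin lies at 1.04 for EBSS in WT cells and at 0.24 in Vps15KO cells.

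The genes for the proteins that MMPs cut were mostly lower in Vps15KO cells. Col1a1 and Col1a2 are in this list and also among the fibroblast markers above, so those results are partly of the same genes. Of 19 matrix genes tested, 12 were called lower and 2 higher in EBSS, and 15 lower and 3 higher in basal medium, with medians of -0.54 and -0.80 in log2. Of all tested genes 27.8% were called lower and 29.4% higher in EBSS, and 29.2% lower and 29.3% higher in basal medium. The type I collagen chain Col1a1 was lower by log2 differences of -1.89 ± 0.09 in EBSS and -1.90 ± 0.09 in basal medium, and the type III chain Col3a1 by -2.02 ± 0.10 and -1.85 ± 0.10. ADAM and ADAMTS proteases, 17 tested, included 9 lower and 4 higher in EBSS, and 8 lower and 2 higher in basal medium. The aggrecanase Adamts5 differed by -0.85 ± 0.07 in EBSS and -0.91 ± 0.07 in basal medium. In the plasminogen activator system, 10 tested, 3 were higher and 4 lower in EBSS, and 4 higher and 5 lower in basal medium, with Serpinb2, an inhibitor of urokinase, at 1.17 ± 0.14 and 1.30 ± 0.14.

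Among 18 AP-1 subunits and other factors known to act on MMP genes, 12 were called higher and 3 lower in Vps15KO EBSS cells against WT EBSS cells, and 6 higher and 5 lower in basal medium, beside the same shares of all tested genes. Fosl1, the AP-1 subunit Fra-1, had 1384, 1301 and 1340 normalized counts in Vps15KO EBSS libraries, 703, 773 and 719 in Vps15KO basal libraries, 185, 197 and 210 in WT EBSS libraries, and 197, 158 and 192 in WT basal libraries. It was higher in Vps15KO cells by 2.61 ± 0.08 in EBSS (adjusted p = 7.65e-14) and 1.86 ± 0.08 in basal medium (3.93e-12). Of the 3 genes with the AP-1 letters printed above, Mmp13 and Mmp3 were higher in Vps15KO cells in both media and Mmp10 was not called in either. Runx2, a RUNX factor, was higher by 1.01 ± 0.07 in EBSS and 0.51 ± 0.07 in basal medium. Smad3, among those called lower in EBSS, differed by -1.13 ± 0.07 there (adjusted p = 1.11e-10). The part of any of these factors in the MMP and TIMP differences was not tested. For EBSS against basal medium the same list gave 14 higher and 1 lower in Vps15KO cells and 8 higher and 7 lower in WT cells, and the difference was called for 9 higher and 2 lower. Of all tested genes 25.9% were higher and 26.1% lower in Vps15KO cells, 31.4% higher and 31.3% lower in WT cells, and 9.55% higher and 8.24% lower in the difference. Egr1, an immediate early factor, had the largest of these 18 differences (2.29 ± 0.13, adjusted p = 1.89e-09).

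A list of cytokine and receptor genes tied to the induction of MMPs had 16 tested genes, among them the antagonist gene Il1rn. Of these 7 were called higher and 6 lower in Vps15KO EBSS cells against WT, where 29.4% and 27.8% of all tested genes were. In basal medium 7 were higher and 3 lower, against 29.3% and 29.2%. Il6, a cytokine that induces MMPs, differed by 1.59 ± 0.12 in EBSS and 1.62 ± 0.12 in basal medium. Il1rn, the interleukin-1 receptor antagonist, differed by 1.29 ± 0.09 and 1.28 ± 0.09. Tgfb3 was lower in both media (-1.13 ± 0.08 and -0.95 ± 0.08). Summed chondrocyte and osteoblast markers, 3 of 8 tested and with Acan and Ibsp at no more than 3 reads, were 4063 to 4102 in Vps15KO EBSS, 1253 to 1330 in Vps15KO basal, 3678 to 4046 in WT EBSS and 1182 to 1277 in WT basal libraries. The sums were thus higher in EBSS in both genotypes. In each genotype 2 of the 3 tested markers were called higher and 1 was not called. Their median log2 changes were 0.41 in Vps15KO and 0.37 in WT cells, so the sums do not stand for each marker. Of all tested genes 25.9% and 31.4% were called higher. The part of these markers in the EBSS changes above was not tested.

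Some reads could come from genes that overlap the 8. Timp1 lies within Syn1 and Timp3 within Syn3, both on the opposite strand, Cep295nl lies within Timp2 on the same strand, and Gm45472 meets the end of Mmp2 on the opposite strand. Whether reads were assigned by strand is not given in the sources used here. These neighbours had 8 to 26, 1 to 12, 50 to 87 and 5 to 23 reads a library for Syn1, Syn3, Cep295nl and Gm45472.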

How the data were processed

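Poly-A RNA of 12 libraries was sequenced. The deposited values are the authors' variance-stabilized log2 values, with a floor of 3.83 for a count of 0. Per the submitters' processing notes, the build was mm10, and limma, DESeq2, featureCounts and STAR 2.7.10b are named without their roles. From the floor the transformation was inverted to normalized counts, and whole reads (tolerance 0.001) came back for 100% of values, with size factors of 0.945 to 1.02. A count of 0 allows up to 3 reads for counting error alone. Genes whose mean log2 value was 1 or more over that floor (14279) were kept, and their deposited values were fitted with limma 3.58.1 in R 4.3.3 (a mean per group over all 12 libraries, empirical Bayes with a variance trend, two-sided tests, 8 residual and 10.2 prior degrees of freedom). P-values were adjusted by Benjamini-Hochberg over all tested genes in each of 5 comparisons and called under 0.05. The fit was also run on simulated data with independent errors and few changed genes. In the real data many more genes were called and some libraries stood apart, so that run does not check these calls. Log2 differences are on the deposited scale and are smaller than those of counts for scarce genes. Tables were handled with Python 3.11.15 and pandas 2.3.3. Transcript lengths came from an annotation of the same assembly, and promoters from RefSeq GRCm38.p6.

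The 8 genes and all gene lists were chosen with earlier results of these data known. Named genes are the 8 members, Pik3r4, all tested genes of the lists of other MMPs and of MMP inhibitors, activators and clearance, and up to 4 genes a comparison with the smallest p in each of the other lists, with the 3 most correlated genes of each member. Alternatives covered scaling, filter, scale, variance model, samples in the fit, left-out libraries, a replicate block, and length and GC trends. A voom fit on the recovered reads was chosen after seeing the data.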

Additional observations from a re-analysis of the deposited data

Results flagged for a closer look

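The change with EBSS was compared between genotypes as Vps15KO minus WT, and a gene is given here where limma called that difference at an adjusted p under 0.05. Of the 8 MMP and TIMP genes this was so for Timp3 (-0.57 in log2, adjusted p = 5.58e-04) and Mmp14 (-0.36, adjusted p = 0.00906). Among the other MMP genes it was so for Mmp11 (-0.49), Mmp15 (-0.71) and Mmp23 (0.73). Among the genes of activation and clearance it was so for Furin (-0.80), the endocytic receptor gene Lrp1 (0.58) and the collagen uptake receptor gene Mrc2 (0.31). Mmp15 had 5.86 to 35.2 normalized counts, and its difference was not called without both WT libraries that stood apart (-0.63, adjusted p = 0.0678) or without Vps15KO EBSS replicate 2, Vps15KO basal replicate 3, WT EBSS replicate 1 or 2, or WT basal replicate 3. The difference of Lrp1 was not called without Vps15KO basal replicate 3 (adjusted p = 0.0617) or WT EBSS replicate 3 (0.0523), and that of Mrc2 lost its call when some single libraries were left out, among them Vps15KO basal replicate 3 (0.0914). Without both WT libraries that stood apart, Timp3 was at -0.51 and Mmp14 at -0.39, both still called.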

How the results depend on the processing

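Of 907 alternative values for the 8 genes (40 gene and comparison pairs), 885 kept sign or lack of call, 5 lost a call, 17 gained one and none of the called values changed sign; 30 pairs had no changed call. The genotype differences of Mmp2, Mmp3, Mmp13, Mmp14 and Timp2 stayed called throughout. In the EBSS comparison of Vps15KO cells 1 of 8 genes was called, against 2 with the replicate block, 3 with quantile normalization, 3 with only the groups compared and 3 without both WT libraries that stand apart; leaving out 1 library at a time gave 1 to 2. For the difference between genotypes 2540 genes were called, 1227 at an adjusted p under 0.01 (1363 and 707 higher, 1177 and 520 lower), and leaving out 1 library gave 1863 to 3175 (1023 to 1659 higher, 832 to 1516 lower). The same left-out fits gave 3 to 4 of 8 genes in WT cells and 2 to 3 for the difference. Of 4386 values for other named genes 141 lost a call, 46 gained one and 2 changed sign, both with length and GC trends removed: Bsg in WT cells (0.20, against -0.07) and Ddr2 in Vps15KO cells (-0.054, against 0.23). The cause was not tested. In their deviations from group means, same-numbered libraries correlated at 0.039 to 0.260 between genotypes and at -0.155 to 0.0125 between media. Differently numbered libraries of the 2 genotypes in 1 medium correlated at -0.212 to 0.106. The labels do not say what a number shares, so numbers were not taken to pair libraries in the main fit. With the replicate block, Timp1 in Vps15KO cells was called (-0.20, adjusted p = 0.0425) and no other call of the 8 genes changed. Mmp10 was dropped by a filter at 3 above the floor. Planned edgeR fits on recovered reads were not run. Mmp10 had 44 to 90 reads a library, and the part of depth in its lack of a call was not tested.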
